A study of Mus musculus with 100 samples.

Results

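The binding of NCoR to chromatin was measured by ChIP-seq in mouse bone marrow-derived macrophages (BMDMs) before and after a toll-like receptor 4 signal. The 4 libraries described here, of 100 samples in the series, were chosen by their labels: 2 from cells given vehicle (Veh) and 2 from cells given KLA for 6 h. KLA is Kdo2-lipid A, a defined part of bacterial lipopolysaccharide that binds toll-like receptor 4. All 4 came from wild type C57Bl6 mice with no engineered allele, and both groups went through the same fixation with disuccinimidyl glutarate followed by formaldehyde. The comparison asked where NCoR goes when the macrophage is activated. The cells were differentiated from marrow in culture with M-CSF, so they model a cultured macrophage and not one of a particular tissue, and the labels do not say from how many animals each library came. ChIP of a cell population cannot tell more NCoR per cell apart from NCoR in more of the cells.

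NCoR, encoded by Ncor1, is a large corepressor that has no DNA binding domain of its own and is brought to DNA by transcription factors. It carries histone deacetylase 3 (HDAC3) together with TBL1X, TBL1XR1 and GPS2, and it is best known for holding nuclear receptors such as the LXRs, the REV-ERBs and the thyroid hormone and retinoic acid receptors in a repressive state. In macrophages NCoR is also found at sites bound by PU.1, AP-1 and NF-κB factors. Toll-like receptor 4 signals through MyD88 and TRIF to NF-κB, AP-1 and interferon regulatory factors, which turn on cytokine, chemokine and antimicrobial genes.

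Each library was described by its tags, the sequenced reads placed on the genome. The Veh libraries held 8.37 and 8.50 M tags (M being the prefix mega), and the KLA libraries held 12.3 and 14.5 M. Sequencing was thus deeper in both KLA libraries than in either Veh library, so depth and treatment cannot be told apart in the group totals. Values are given throughout as tags in a peak per 10 M tags of the library (tags per 10 M). Between 31.1% and 36.8% of the tags of a library fell in peaks. Replicate libraries correlated across peaks with r = 0.841 for Veh and r = 0.930 for KLA on the log2 scale, a description over 55045 peaks that share their libraries. As a check of the cell type, all 15 macrophage marker genes, Cx3cr1, Itgam and Adgre1 among them, were the nearest gene of at least 1 NCoR peak, and the peaks of this list summed to between 11290 and 14771 tags per 10 M in each library. Of 8 T cell markers 5 had a peak, Cd3d and Cd4 among them, while Cd3g, Cd8a and Lck had none, and the list summed to between 139 and 214 tags per 10 M. The sums were 746 to 1057 for B cell markers (2 of 6 genes with a peak), 546 to 737 for neutrophil and progenitor markers (7 of 10) and 1281 to 1663 for fibroblast and endothelial markers (3 of 11). NCoR at a gene is not its expression, so this check says only where NCoR stood.

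To show the DNA under the change, the central 200 bases are printed of 6 of the 12 peaks of lowest p-value that gained NCoR and 4 of the 12 that lost it. They were picked because they hold the motifs described further on, while others of the lowest p-values, such as the Gatm and Itpkb peaks among the gains and the Litaf, Angptl4 and Csf1 peaks among the losses, hold none of the motifs searched, and the peak near Klhl3, also among the 12 losses, holds an AP-1 match beside a core site. All are given 5′ to 3′ on the plus strand of mm10, and none overlaps an annotated exon. Capitals mark matches on either strand to sequences that transcription factors are known to bind. Those present in the first set are the AP-1 sequence TGANTCA, a wide NF-κB sequence (GGG and TTCC with any 3 bases between them), the interferon-stimulated response element or ISRE (GAAA repeated after any 2 bases) and the nuclear receptor core site AGGTCA. The 6 peaks with more NCoR after KLA lie between genes (chr19:21948090-21948289, nearest gene Tmem2, and chr10:19078199-19078398, nearest gene Tnfaip3) or in introns (chr3:135670648-135670847 in Nfkb1, chr7:74527802-74528001 in Slco3a1, chr2:128420490-128420689 in Gm14005 and chr6:144689188-144689387 in Sox5os3).
Tmem2: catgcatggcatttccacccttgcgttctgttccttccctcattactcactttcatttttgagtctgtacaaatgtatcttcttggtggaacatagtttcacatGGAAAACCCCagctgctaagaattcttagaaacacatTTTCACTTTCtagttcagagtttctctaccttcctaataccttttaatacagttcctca
Nfkb1: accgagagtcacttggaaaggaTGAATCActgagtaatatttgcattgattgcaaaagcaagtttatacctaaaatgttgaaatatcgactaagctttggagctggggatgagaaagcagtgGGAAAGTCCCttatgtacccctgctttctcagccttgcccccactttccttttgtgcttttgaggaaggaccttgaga
Tnfaip3: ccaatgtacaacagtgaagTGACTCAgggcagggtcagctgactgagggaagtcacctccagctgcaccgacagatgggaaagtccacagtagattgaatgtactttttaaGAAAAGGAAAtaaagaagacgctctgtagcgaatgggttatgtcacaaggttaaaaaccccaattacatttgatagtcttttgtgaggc
Gm14005: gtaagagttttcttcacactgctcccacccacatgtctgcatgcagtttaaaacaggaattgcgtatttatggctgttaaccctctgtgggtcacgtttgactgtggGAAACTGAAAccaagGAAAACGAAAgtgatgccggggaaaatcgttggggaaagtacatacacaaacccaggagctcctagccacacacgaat
Sox5os3: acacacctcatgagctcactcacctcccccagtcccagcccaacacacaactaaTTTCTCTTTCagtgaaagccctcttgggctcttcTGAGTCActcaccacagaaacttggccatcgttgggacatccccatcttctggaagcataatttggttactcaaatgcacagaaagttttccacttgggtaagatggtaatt
Slco3a1: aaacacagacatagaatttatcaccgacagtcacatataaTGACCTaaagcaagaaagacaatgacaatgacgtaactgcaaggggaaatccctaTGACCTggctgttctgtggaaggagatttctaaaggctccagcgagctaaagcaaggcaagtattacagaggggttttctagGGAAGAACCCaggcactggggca

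An NF-κB match stands in the Tmem2, Nfkb1 and Slco3a1 peaks. An ISRE match stands in the Tmem2, Tnfaip3, Gm14005 and Sox5os3 peaks, with 2 of them in Gm14005. An AP-1 match stands in the Nfkb1, Tnfaip3 and Sox5os3 peaks, and the Slco3a1 peak also holds 2 nuclear receptor core sites. A match is a description of the letters and not evidence that a factor is bound.

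The 4 peaks with less NCoR after KLA lie upstream of Npas2 (chr1:39192722-39192921), between genes near Mir6395 (chr8:34255141-34255340) and Col4a2 (chr8:11179961-11180160), and in an intron of Gdi2 (chr13:3538605-3538804). Here the capitals are nuclear receptor core sites, the PU.1 sequence GAGGAAGT, a GC box (GGGGCGGGG) and the longer element of REV-ERB and ROR receptors, in which an A/T-rich stretch precedes a core site.
Npas2: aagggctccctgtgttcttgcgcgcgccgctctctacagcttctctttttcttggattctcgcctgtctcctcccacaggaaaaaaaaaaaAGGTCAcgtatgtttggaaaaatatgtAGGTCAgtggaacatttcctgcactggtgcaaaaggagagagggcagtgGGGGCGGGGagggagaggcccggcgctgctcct
Mir6395: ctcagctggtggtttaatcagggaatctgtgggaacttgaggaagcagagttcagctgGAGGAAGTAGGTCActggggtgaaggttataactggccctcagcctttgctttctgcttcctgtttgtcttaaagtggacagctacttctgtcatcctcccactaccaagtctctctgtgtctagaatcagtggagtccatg
Gdi2: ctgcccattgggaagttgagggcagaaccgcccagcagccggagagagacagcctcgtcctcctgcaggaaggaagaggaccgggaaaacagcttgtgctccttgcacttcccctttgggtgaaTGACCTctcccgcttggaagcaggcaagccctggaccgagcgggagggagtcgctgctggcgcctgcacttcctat
Col4a2: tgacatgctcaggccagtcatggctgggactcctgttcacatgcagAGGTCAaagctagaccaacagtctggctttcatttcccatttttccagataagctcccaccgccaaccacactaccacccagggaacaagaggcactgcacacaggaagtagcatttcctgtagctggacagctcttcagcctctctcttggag

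All 4 of these peaks hold at least 1 nuclear receptor core site, and Npas2 holds 2. In the Mir6395 peak the core site is part of a REV-ERB/ROR match that overlaps a PU.1 match. None of the 4 holds an AP-1, NF-κB or ISRE match in this window, unlike the Klhl3 peak with its AP-1 match.

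KLA moved NCoR in both directions across the genome. Of 55045 tested peaks, 12866 gained NCoR, which is 23.4% of all tested, and 9207 lost it, which is 16.7%. A call here means a Benjamini-Hochberg adjusted p under 0.05 in edgeR's quasi-likelihood test and a change of more than 2-fold, and 40.1% of peaks were called in either direction. The median log2 fold change over all peaks was 0.10. With 1 KLA library left out the counts dropped to 4921 higher and 4880 lower (without KLA replicate 1) and to 4833 higher and 4440 lower (without KLA replicate 2). Without Veh replicate 1 there were 14082 higher and 11600 lower peaks, and without Veh replicate 2 there were 16463 higher and 8925 lower. Gains outnumbered losses in all 4 of these reduced fits, which share 1 peak set. In it 23446 peaks were called by the study only with KLA and 6377 only with Veh. Those called only with KLA made up 86.6% of the gains, and among peaks called in both conditions losses led. The lead of gains thus describes this peak set, which was called on the same libraries, and was not tested outside it.

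Among the called peaks of this peak set the gains were larger than the losses. Of the gains 86.6% were peaks that the study called only with KLA. All tested peaks called only with KLA had a median level of 14.2 tags per 10 M in Veh. A low start and a large gain thus come with how most of these peaks were chosen, and neither was tested outside this set. Changes of more than 4-fold numbered 7857 among the gains and 2910 among the losses, changes of more than 16-fold 2265 and 168, and changes of more than 32-fold 1439 and 44. The peaks that gained NCoR began low: their median level was 8.29 tags per 10 M in Veh and 46.3 in KLA, and 2391 of them held no more than 3 tags over both Veh libraries. The peaks that lost NCoR had a median level of 72.9 in Veh and kept 22.2 in KLA, and 45 of them held no more than 3 tags over both KLA libraries. Peaks that were not called had medians of 44.5 and 42.8. The groups did not overlap, with both KLA libraries above both Veh libraries, at 41.0% of all tested peaks, and with both below at 34.8%. Among called peaks the groups were apart at all 12866 gains and at 9205 of the 9207 losses. The call itself nearly requires this, so it adds no support. Of the 13762 peaks with the lowest mean level 40.3% gained and 9.63% lost NCoR, and of the 13761 with the highest level 12.3% gained and 19.6% lost it.

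**Figure D1:**
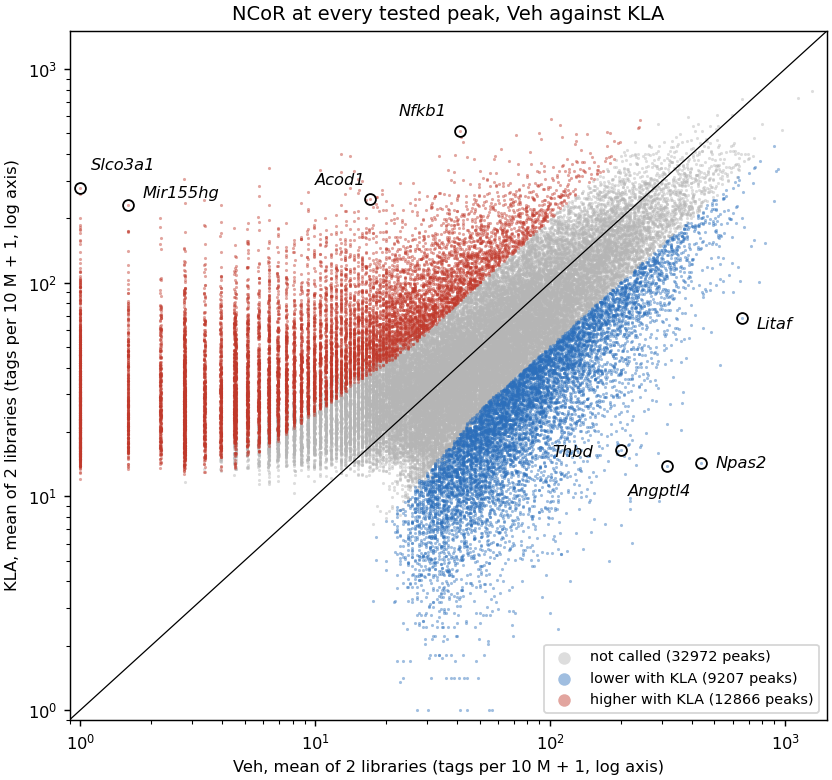
Mean NCoR level at each of the 55045 tested peaks in 2 Veh libraries (horizontal, tags per 10 M + 1, log axis) and 2 KLA libraries (vertical, same scale), with the line of equal level in black. Red points are the 12866 peaks called higher with KLA, which spread far above the line at low Veh levels, blue points the 9207 called lower, and circles mark named peaks such as Mir155hg (up) and Npas2 (down).

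The study's own peak calls, kept where replicates agreed, were made on the same libraries and are no separate evidence. Of the tested peaks, 25222 were called in both conditions, 23446 only with KLA and 6377 only with Veh. Of those called only with KLA 47.5% passed the test as higher and 0.32% as lower, and of those called only with Veh 67.6% passed as lower and 0.078% as higher. Of the shared peaks 6.80% gained and 19.1% lost NCoR. The peaks called only with KLA held 11.6% and 11.9% of the in-peak tags of the Veh libraries and 28.6% and 29.4% of those of the KLA libraries.

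The gains of lowest p-value included a gene long known as a target of toll-like receptors. At Mir155hg, the host gene of the inflammatory microRNA miR-155, NCoR at the promoter peak (chr16:84713109-84713322, 192 bp from the start site) was 1.19 and 0 tags per 10 M in Veh and 234 and 226 in KLA. The Veh level rests on 1 tag, so no fold is given for this peak (adjusted p = 2.34e-05 by edgeR). All 5 peaks nearest to Mir155hg rose. The intergenic peak 80945 bp from 1700016G22Rik, a gene without a known product, went from 3.58 and 7.06 to 327 and 358 tags per 10 M (log2 fold change 5.97 ± 0.32, SE, n = 2 and 2). The Slco3a1 peak printed above, in an intron of an organic anion transporter gene, had no tag in either Veh library and 291 and 261 tags per 10 M in KLA, at least 154-fold higher against a floor of 3 tags over the group. Each of these sites was almost empty in both Veh libraries and strongly occupied in both KLA libraries.

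Genes of the NF-κB pathway itself were among the sites of gain. NFKB1 supplies the p50 subunit, and its intronic peak rose from 49.0 and 31.8 to 532 and 494 tags per 10 M (log2 fold change 3.66 ± 0.23). TNFAIP3, also called A20, is a ubiquitin-editing enzyme that ends NF-κB signalling, and the peak 62888 bp upstream of its gene rose from 5.97 and 9.42 to 230 and 240. The promoter peak of Acod1, which makes the antimicrobial metabolite itaconate, rose from 16.7 and 15.3 to 238 and 251 tags per 10 M at 93 bp upstream of the start site (log2 fold change 3.92 ± 0.27). All 12 peaks nearest to Acod1 rose. The Gbp2 peak, in the 3′ UTR class near the gene of an interferon-induced GTPase, rose from 34.7 and 47.1 to 505 and 454, and the Itpkb peak, near an inositol trisphosphate kinase gene, from 8.36 and 17.7 to 405 and 379. For Tmem2, a hyaluronidase gene of the cell surface, the values were 14.3 and 14.1 in Veh and 296 and 315 in KLA. In all of these, which were picked by low p-values, the lowest KLA library stood many times above the highest Veh library.

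The losses of lowest p-value included sites near a clock gene, a lipid gene and a growth factor gene. NPAS2 is a transcription factor of the circadian clock that can stand in for CLOCK, and the peak 1451 bp upstream of its gene fell from 429 and 443 tags per 10 M to 12.2 and 14.5 (log2 fold change −5.01 ± 0.24, adjusted p = 2.34e-05 by edgeR). It was 1 of 4 peaks nearest to Npas2, and the only one called. The peak in an intron of Angptl4, a PPAR target gene whose product inhibits lipoprotein lipase, fell from 264 and 365 to 11.3 and 14.5 (−4.58 ± 0.29). A peak 13681 bp upstream of Csf1, which encodes the growth factor M-CSF, fell from 332 and 393 to 30.0 and 22.8 (−3.78 ± 0.24), while 4 of the 14 peaks of Csf1 rose and 4 fell. All 3 sites were well filled in both Veh libraries and held at most 30.0 tags per 10 M in either KLA library.

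Further losses lay at genes of various roles. The peak in the 3′ UTR of Plxnb1, a semaphorin receptor gene, fell from 296 and 280 to 8.10 and 8.99 tags per 10 M. The promoter peak of Thbd, which encodes the anticoagulant receptor thrombomodulin, fell from 185 and 214 to 17.8 and 13.1 at 84 bp upstream of the start site. The peak 6955 bp upstream of Litaf, whose name comes from lipopolysaccharide-induced TNF factor, fell from 606 and 700 to 71.3 and 63.6 and so kept more NCoR than the others. The printed peaks near Mir6395, Col4a2 and Gdi2 fell from 516 and 534 to 35.6 and 44.3, from 323 and 398 to 21.1 and 18.0, and from 208 and 192 to 6.48 and 6.22. In none of these, which were picked by low p-values, did a KLA library come near a Veh library.

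**Figure D2:**
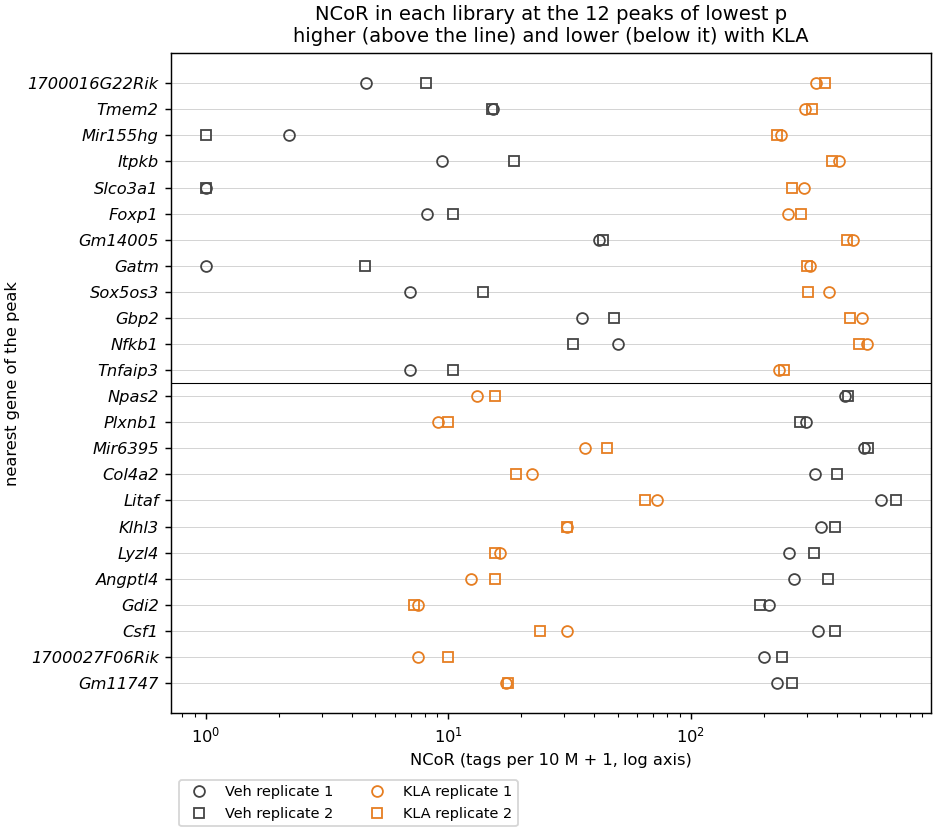
NCoR in each of the 4 libraries (tags per 10 M + 1, log axis; Veh grey, KLA orange, circles replicate 1, squares replicate 2) at the 12 peaks of lowest p-value in each direction, labelled by nearest gene. Above the line all KLA points lie right of all Veh points, and below it all lie left, with replicates close together except at the nearly empty sites.

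Promoters and distal sites differed in which way NCoR went. HOMER's annotation put 6688 peaks in the promoter-TSS class, of which 9.58% gained and 12.5% lost NCoR, so losses led there. Introns held 25425 peaks (24.6% gained, 17.5% lost) and intergenic DNA 20631 (26.7% gained, 16.9% lost), so gains led there. Losses also led in exons, with 17.6% of 529 gained and 21.2% lost. The remaining classes were smaller, with 14.02% gained and 15.2% lost of 264 peaks in 5′ UTRs, 23.01% and 17.5% of 565 in 3′ UTRs, and 22.4% and 20.4% of 771 at transcript ends.

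The shift followed the distance from a transcription start site. Within 0.1 kb of a start site 6.14% of 3893 peaks gained and 11.6% lost NCoR. Between 0.1 and 1 kb 15.7% gained and 14.8% lost, and between 1 and 2 kb 23.8% and 16.5%. From 2 to 10 kb 24.1% gained, from 10 to 50 kb 25.6%, from 50 to 100 kb 26.5% and beyond 100 kb 28.0%. The share that lost NCoR moved little beyond 2 kb, between 17.1% and 18.1%. Peaks more than 2 kb from a start site made up 80.1% of the tested peaks, 87.8% of the gains and 83.2% of the losses. The lead of losses within 0.1 kb was present in each of the 4 fits with 1 library left out, whereas in the wider promoter-TSS class gains led without Veh replicate 2 (1030 higher and 854 lower). Without KLA replicate 1 losses led in introns (2300 higher and 2370 lower) and in the bins from 0.1 to 1 kb (258 and 299), 1 to 2 kb (230 and 236) and 2 to 10 kb (1060 and 1092). From 0.1 to 1 kb they also led without Veh replicate 1 (774 and 863), and at transcript ends without KLA replicate 1 (61 and 89) or 2 (65 and 75). Gains led in intergenic DNA and in each bin beyond 10 kb in all 4 reduced fits. Exons and UTRs were not counted in these fits.

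The tag totals moved the same way by small amounts. Promoter-TSS peaks held 11.8% and 11.7% of the in-peak tags of the Veh libraries and 11.1% and 11.1% of those of the KLA libraries, and peaks within 0.1 kb held 6.55% and 6.48% against 5.93% and 5.89%. Both pairs of values were apart, but an exact permutation test of 2 against 2 cannot give a two-sided p below 0.333.

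**Figure D3:**
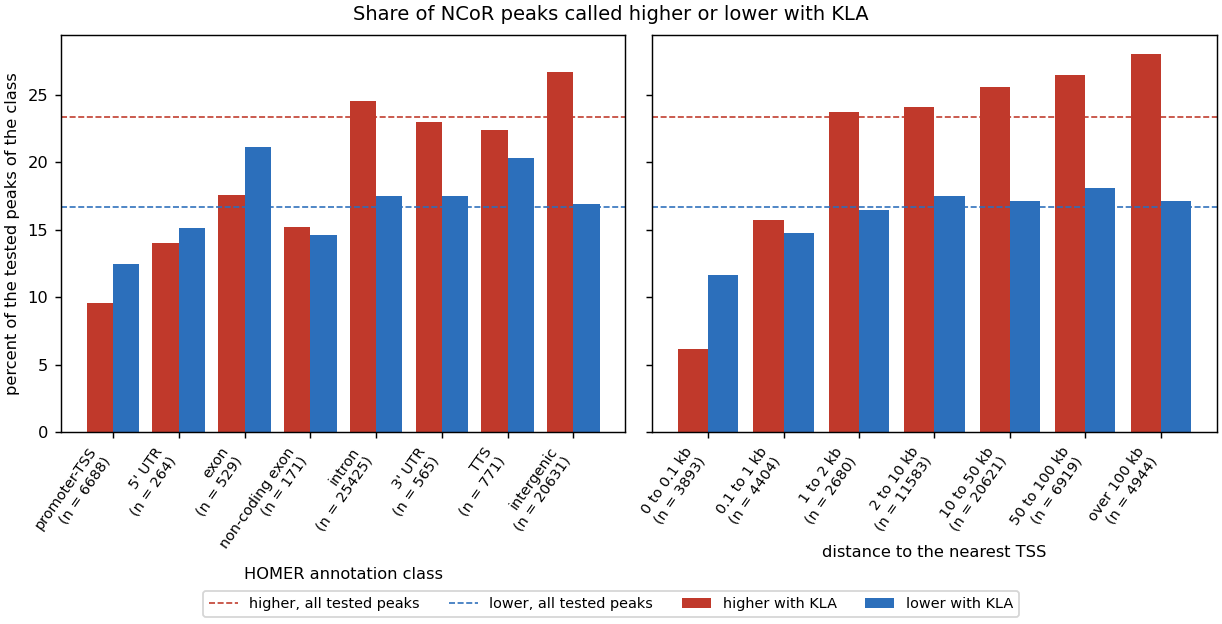
Percent of the tested NCoR peaks called higher (red) or lower (blue) with KLA in each annotation class (left) and bin of distance to the nearest start site (right), with the number of peaks under each name and dashed lines at 23.4% and 16.7% for all tested peaks. The blue bar passes the red bar within 0.1 kb of a start site and in the promoter-TSS, 5′ UTR and exon classes, and the red bars rise to 28.0% beyond 100 kb.

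Repeat classes differed from one another. Of 3004 peaks in LINE elements, retrotransposons that make up much of intergenic DNA, 37.2% gained and 10.8% lost NCoR. DNA transposons (35.0% gained, 8.20% lost of 695 peaks) and low-complexity DNA (44.1% gained, 9.90% lost of 404) were alike, and LTR elements were nearer the background with 25.8% and 14.7% of 4435. SINE elements (23.2% gained, 16.9% lost of 1735 peaks) and simple repeats (24.0% and 16.4% of 225) stood at the background. Of 647 peaks in CpG islands outside the promoter class 10.2% gained and 14.2% lost NCoR. The median Veh level of all peaks was 39.6 tags per 10 M. It was 17.1 in low-complexity DNA, 28.4 in LINE elements and 30.2 in DNA transposons. Simple repeats (29.5), LTR (33.2) and SINE elements (35.6) were also below the level of all peaks. Of the 13762 peaks with the lowest mean level, whatever their class, 40.3% gained and 9.63% lost NCoR. The part of level in the differences between repeat classes was not tested. Reads from repeats can map to more than 1 place, and the counting does not show which of these were kept.

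Peaks that moved the same way lay near each other. From a gained peak the nearest other gained peak was at a median of 9.01 kb and within 10 kb for 52.1%, whereas the nearest lost peak was at a median of 82.5 kb and within 10 kb for 10.7%. From a lost peak the nearest other lost peak was at a median of 12.1 kb and the nearest gained peak at 52.0 kb. Peaks that were not called had medians of 24.6 kb to a gained and 39.6 kb to a lost peak. By chromosome the balance varied, from 30.6% gained and 13.3% lost on chromosome 16 to 20.5% gained and 20.6% lost on chromosome 8.

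Summed over all peaks nearest to a gene, NCoR rose at 1985 of 12887 genes, which is 15.4% of those tested, and fell at 1633, which is 12.7%. Many genes had changes that cancelled: 8286 genes had at least 1 called peak, 3705 only higher ones, 2726 only lower ones and 1855 both. Of the genes with both, 151 passed the test on their sum. Without single libraries the count of genes with a net gain ran from 1346 to 2513 and with a net loss from 1188 to 2091. Without Veh replicate 1 losses led, with 1925 net gains and 2091 net losses.

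Mir155hg led the genes with a net gain. Its summed NCoR was 9.56 and 9.42 tags per 10 M in Veh and 629 and 597 in KLA (log2 fold change 5.996 ± 0.27, adjusted p = 1.81e-14 by edgeR). Gbp2 rose from 115 and 124 to 940 and 923, with all 5 of its peaks higher. Btla, an inhibitory receptor of lymphocytes and myeloid cells, rose from 115 and 100.1 to 744 and 777 (13 of 15 peaks), and Gpd2, the mitochondrial glycerol phosphate dehydrogenase, from 96.8 and 83.6 to 631 and 659 (12 of 13). Most peaks rose at Slco3a1 (25 of 29) and at Itgb8, an integrin subunit that activates TGF-β (23 of 28), and none was called lower at either gene. At Tnfaip3 22 of 37 peaks rose and none fell, and at Foxp1, a forkhead factor gene, 23 of 53 rose and 4 fell, but the sums of these 2 genes stayed below the 2-fold minimum (log2 fold changes 0.97 ± 0.16 and 0.84 ± 0.16).

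Plxnb1 and Lyzl4 led the genes with a net loss. Selenop, which encodes the selenium transport protein, fell from 864 and 1038 to 188 and 187 tags per 10 M (log2 fold change −2.34 ± 0.17), with all 8 of its peaks lower. Slco2b1, an organic anion transporter gene, fell from 504 and 692 to 72.9 and 86.5 (5 of 5 peaks), and Tox2, a gene of an HMG-box nuclear factor, from 624 and 763 to 136 and 136 (4 of 4). Losses over many peaks were seen at Dhrs3, a retinal reductase gene (18 of 31 lower, 2 higher), at Jun (17 of 27 lower, 3 higher) and at Fli1, an ETS factor of blood cells (15 of 20 lower, none higher). Runx1, a hematopoietic transcription factor, had 11 peaks higher and 9 lower of 55, the most when genes are ranked by the smaller of both counts, and its sum was 4124 and 4849 in Veh and 4274 and 4075 in KLA, where the groups overlap.

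Peaks at NF-κB genes rose more often than they fell. Of the 220 peaks nearest to 17 NF-κB subunits and inhibitors 49.1% rose and 5.00% fell, against 23.4% and 16.7% of all peaks. When each gene is represented by the peak with most tags, the background is 14.5% higher and 17.2% lower, and here 6 of 17 rose, 1 fell and 10 were not called. The sum over all peaks of a gene rose at 4 of the 17 and fell at none. The largest rise after Nfkb1 was at Ikbkb, the gene of an IκB kinase subunit, from 27.5 and 25.9 to 174 and 132 tags per 10 M (log2 fold change 2.51 ± 0.29). Nfkbib, the inhibitor IκBβ, rose from 116 and 142 to 395 and 340. The strongest peak of Nfkbia, the inhibitor IκBα, was the one that fell, from 440 and 511 to 204 and 189 (−1.27 ± 0.17), while 4 of its 14 peaks rose. The strongest peak of Rel held 269 and 300 in Veh and 173 and 160 in KLA, short of the 2-fold minimum, and 7 of the 16 peaks of Rel rose.

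Cytokine genes followed. Of 181 peaks at 20 cytokine genes 48.6% rose and 4.42% fell, with 5 strongest peaks higher and 0 lower. Il27, the gene of a subunit of interleukin 27, rose from 34.7 and 35.3 to 179 and 186 tags per 10 M (2.38 ± 0.25), and its partner Ebi3 from 110 and 108 to 256 and 247. The Il18 promoter, of an inflammasome-processed cytokine, rose from 123 and 177 to 388 and 382. The strongest peaks of Il6 (464 and 557 in Veh, 648 and 569 in KLA) and Tnf (197 and 172, then 209 and 245) were not called, while 13 of 16 Il6 peaks and 5 of 8 Tnf peaks rose. At Il12a, which encodes the p35 subunit of interleukin 12, 11 of 13 peaks rose, among them the promoter peak at 111 bp upstream (1.19 and 0 to 26.7 and 38.0). At Il6, Tnf and Il12a the gain was at sites other than the best filled one.

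Chemokine genes were alike, with 43.9% of 139 peaks higher and 8.63% lower, and 5 strongest peaks of 19 genes higher and 1 lower. The strongest Ccl22 peak, 5642 bp upstream, had no Veh tag and 86.7 and 93.4 tags per 10 M in KLA, at least 50.8-fold higher. Ccl7, a ligand that draws monocytes, rose from 63.3 and 49.4 to 286 and 300, and the promoter peak of the interferon-induced Cxcl10 from 62.1 and 98.9 to 321 and 257. Ccl6 went the other way, from 578 and 699 to 94.0 and 108 (−2.66 ± 0.19). Ccl2 held 590 and 664 in Veh and 394 and 322 in KLA, a difference below 2-fold.

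Enzymes and effectors of inflammation split into a rising and a falling set. Of 20 genes 10 strongest peaks rose and 6 fell, and over 115 peaks 43.5% rose and 22.6% fell. Saa3, an acute phase gene, rose from 4.78 and 0 to 156 and 145 tags per 10 M at its promoter, and Lcn2, which encodes an iron-scavenging antimicrobial protein, from 0 and 0 to 30.8 and 29.7, at least 17.0-fold. Cp, the ceruloplasmin gene, had 4 of 4 peaks higher, among them the 5′ UTR peak (19.1 and 25.9 to 186 and 205). The promoter peak of Ptgs2, the inducible cyclooxygenase, rose from 46.6 and 44.7 to 165 and 158 (1.82 ± 0.24). Nos2, the inducible nitric oxide synthase, had 9 of 9 peaks higher, but its strongest peak (35.8 and 75.3 to 126 and 103) was not called without Veh replicate 1 (log2 fold change 0.60) or without KLA replicate 1 or 2 (0.89 and 1.17). Cp, Ptgs2 and Il12a are genes the study singles out from cells of the same kind, so their direction is no independent pattern.

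The falling set of this list held 2 genes of leukotriene synthesis. Alox5ap, the helper protein of 5-lipoxygenase, fell from 355 and 419 to 54.3 and 54.0 tags per 10 M (−2.84 ± 0.20). Alox5, the gene of 5-lipoxygenase itself, fell from 379 and 483 to 101 and 90.6. Ptgs1, the constitutive cyclooxygenase (256 and 286 to 93.1 and 104), and Arg1, the arginase that competes with NOS2 for arginine (284 and 387 to 116 and 122), fell too. Inducible and constitutive cyclooxygenase genes thus moved in opposite directions.

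Over all their peaks, toll-like receptor genes and interferon regulators were closer to the background. Of 202 peaks at toll-like receptors and their adaptors 30.7% rose and 10.4% fell, and the strongest peak rose at 2 and fell at 4 of 26 genes. The Tlr6 peak rose from 28.7 and 34.1 to 160 and 181, whereas the strongest Tlr4 peak fell from 269 and 357 to 131 and 137 while 10 of its 19 peaks rose. Of 115 peaks at IRF and STAT genes 25.2% rose and 16.5% fell. Their strongest peaks stood further from the background of 14.5% higher and 17.2% lower, with 5 of 14 higher and 1 lower. Irf4, which acts in alternatively activated macrophages, rose from 28.7 and 49.4 to 147 and 157. Irf7, a regulator of interferon genes, fell from 277 and 339 to 139 and 145, and its log2 fold change of −1.12 became −0.97 without Veh replicate 2, short of the 2-fold minimum. Of 237 peaks at MAPK and cytokine feedback genes 24.1% rose and 13.9% fell, with Cish, a cytokine signalling suppressor, up from 35.8 and 17.7 to 160 and 166 and Dusp6, an ERK phosphatase, down from 350 and 415 to 117 and 142.

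LXR target genes lost NCoR more often than they gained it. Of 139 peaks at 17 genes 15.1% rose and 29.5% fell, and 5 strongest peaks fell and none rose. Apoe, the apolipoprotein that carries cholesterol from macrophages, had a promoter peak that fell from 66.9 and 68.3 to 1.62 and 1.38 tags per 10 M (−5.40 ± 0.55). Its strongest peak fell from 52.6 and 121 to 28.3 and 26.3, a call that was lost without Veh replicate 2 (log2 fold change −0.94) or either KLA library (−1.72 and −1.61). Apoc1, its neighbour and a further apolipoprotein gene, fell from 118 and 167 to 52.6 and 36.7. Of the 8 peaks at Pltp, a phospholipid transfer protein gene, 6 fell, though the call of the strongest was lost without Veh replicate 2 (−0.91) or KLA replicate 2 (−0.96). Abca1, the cholesterol efflux pump, was less affected: its strongest peak held 407 and 446 in Veh and 352 and 273 in KLA, and of its 24 peaks 4 rose and 3 fell. Scd2, a fatty acid desaturase gene, had 1 peak higher and 2 lower of 9.

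Peaks at cholesterol and clock genes also fell more often than they rose, a count without a test. Of only 37 peaks at cholesterol synthesis and uptake genes 5 rose (13.5%) and 9 fell (24.3%). The strongest peak of Insig1, a sterol sensor gene, fell from 318 and 308 to 59.9 and 58.1 tags per 10 M. Of 71 peaks at clock genes 18.3% rose and 31.0% fell, and the strongest peak rose at 2 and fell at 6 of 17 genes. Summed over each gene the clock list was nearly even, with 3 net gains and 4 net losses. The promoter peak of Arntl, which encodes BMAL1, fell from 344 and 380 to 68.8 and 73.3 tags per 10 M (−2.35 ± 0.19), and that of Bhlhe40, a repressor of the clock, from 151 and 164 to 36.4 and 26.97. The 2 that rose were Nfil3 (50.2 and 91.8 to 192 and 195) and Per2 (22.7 and 17.7 to 47.8 and 41.5), and Per2 was not called without Veh replicate 2 or either KLA library (log2 fold changes 0.97 to 1.24) or with a replicate block (1.15, adjusted p = 0.0559 by edgeR). Nr1d1, the gene of REV-ERBα, held 369 and 435 in Veh and 240 and 257 in KLA, below the 2-fold minimum.

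Among 21 lineage transcription factors the strongest peak fell at 7 and rose at none, and of their 405 peaks 17.3% rose and 21.98% fell. The Cebpa promoter fell from 232 and 326 to 53.5 and 39.4 tags per 10 M (−2.59 ± 0.26), and the strongest Fli1 peak from 332 and 415 to 114 and 85.1. Mef2c, a MADS-box factor of myeloid cells, fell from 182 and 244 to 70.5 and 49.8. Of 135 peaks at macrophage markers 20.0% rose and 14.8% fell. The promoter of Trem2, a lipid-sensing receptor, fell from 208 and 257 to 51.0 and 44.3, with 3 of 3 peaks lower, and Marco, a scavenger receptor, rose from 10.8 and 28.2 to 62.4 and 70.6, a call that was lost without KLA replicate 1 or 2 (adjusted p = 0.0514 and 0.0843 by edgeR). Of 127 peaks at osteoclast genes 19.7% rose and 21.3% fell, and Atp6v0d2, a proton pump subunit gene, fell from 249 and 335 to 77.8 and 82.3.

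Remaining lists were mixed. AP-1 and ATF genes had 19.6% of 153 peaks higher and 22.9% lower, with Fosl2 down from 460 and 598 to 118 and 125 tags per 10 M and Maff up from 19.1 and 18.8 to 100.4 and 78.9. Nuclear receptor genes and PPAR targets had 22.6% of 190 higher and 15.8% lower. Genes of the NCoR complex and its cofactors had 16.1% of 161 higher and 24.2% lower. Ncor1 had 1 peak, with 29.9 and 28.2 in Veh and 11.3 and 22.1 in KLA, and Hdac3 had none. Ribosomal and housekeeping genes had 12.8% of 47 higher and 6.38% lower. Among markers of other cell types, 3 of 5 T cell gene peaks rose, each to no more than 23.5 tags per 10 M, as did 3 of 11 at B cell genes, 3 of 15 at neutrophil and progenitor genes (3 fell) and 6 of 20 at fibroblast and endothelial genes (2 fell). The part of other cells in the results was not tested.

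**Figure D4:**
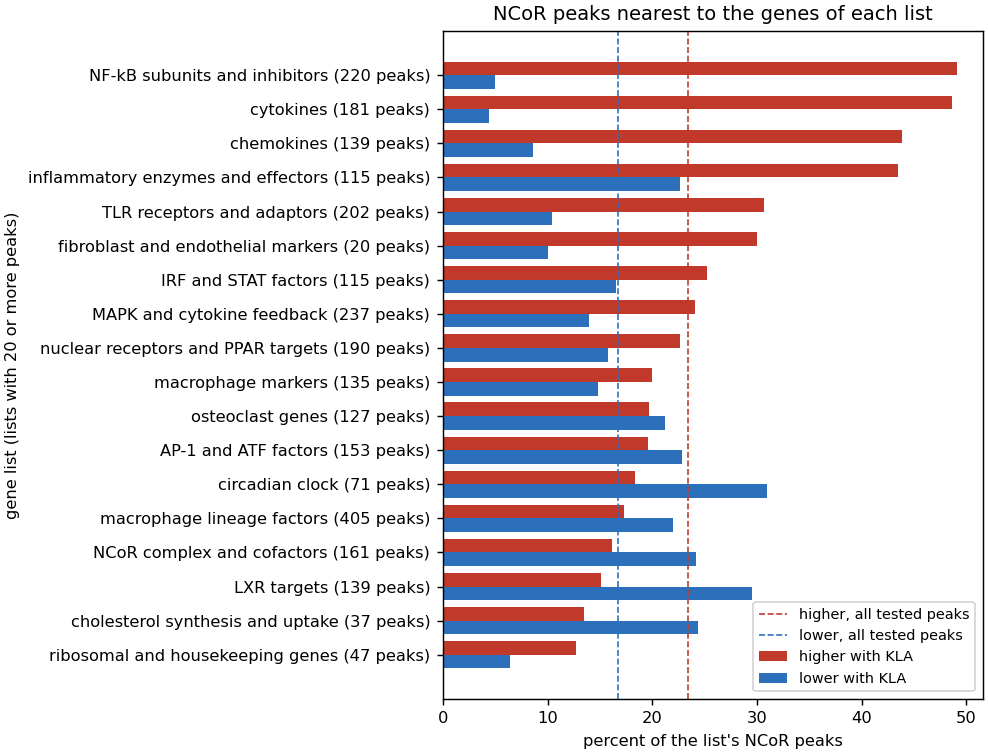
Percent of the NCoR peaks of each gene list that were higher (red) or lower (blue) with KLA, for lists with 20 or more peaks, peaks being assigned to the nearest gene; dashed lines mark 23.4% and 16.7% for all tested peaks. NF-κB genes, cytokines, chemokines and inflammatory enzymes stand well right of the red line, and the clock and LXR lists have the longest blue bars.

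HDAC3, which NCoR carries and activates, moved with NCoR. Its ChIP-seq libraries were made from cells of the same genotype and treatments, 2 for each. The input libraries are labelled jointly for NCoR and HDAC3, so both may come from the same chromatin. Their match is therefore not taken as independent replication. KLA replicate 2 of HDAC3 held 5.69 M tags, against 13.7 to 18.1 M in the other HDAC3 libraries. Of 48502 HDAC3 regions 27.5% rose and 11.3% fell with KLA. An HDAC3 region lay within 500 bp of 80.6% of the gained and 75.9% of the lost NCoR peaks, against 80.4% of all. At gained NCoR peaks 86.3% of these regions rose, with a median log2 fold change of 2.12, and at lost peaks 62.0% fell, with a median of −1.22. Where NCoR was not called the median was 0.12, and over all HDAC3 regions it was 0.27. With TMM, edgeR's scaling between libraries, 79.9% rose at gained and 79.1% fell at lost peaks, with medians of 1.85 and −1.47. The median where NCoR was not called then changed sign to −0.16. At the Npas2 peak HDAC3 fell from 214 and 215 to 7.03 and 3.51 tags per 10 M, and at the Mir155hg promoter it rose from 0.727 and 0.553 to 273 and 397.

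The response of NCoR was set against that of HDAC3 in 1 model over the 8 libraries, at 42570 NCoR peaks with an HDAC3 region within 100 bp. The model treated the libraries as independent. The difference between the log2 responses passed the adjusted threshold at 0 peaks (0% of those tested), and the smallest adjusted p was 0.551 by edgeR. Without adjustment 1934 peaks, 4.54% of those tested, had p under 0.05. The median difference, NCoR minus HDAC3, was −0.15 over all matched peaks (0.048 with TMM, edgeR's scaling between libraries), 0.16 at the 10013 that gained NCoR and −0.38 at the 6689 that lost it, which are sets chosen on the NCoR values. The 95% interval reached a median of 1.08 to either side, so that differences below about 2-fold at a single peak were mostly out of reach. At Npas2 the difference was 0.12 with an interval from −0.90 to 1.14, and at Tmem2 it was 0.52 with an interval from −0.44 to 1.49.

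The p65 subunit of NF-κB rose at most of the sites it shared with rising NCoR. It had 52629 regions, of which 57.0% rose and 5.43% fell with KLA. A p65 region lay near 81.4% of the gained and 57.6% of the lost NCoR peaks, against 73.4% of all. At gained peaks 94.1% of the p65 regions rose, with a median log2 fold change of 3.29. At lost peaks 10.5% rose and 16.5% fell, with a median of −0.11, but this depended on the scaling: with TMM factors, which shifted the median of all p65 regions from 1.46 to 0.24, 0.887% rose and 60.3% fell, with a median of −1.33. The median at gained peaks was 2.07 under TMM. At the Mir155hg promoter p65 rose from 4.38 and 5.59 to 531 and 588 tags per 10 M, and at Slco3a1 from 1.75 and 2.80 to 349 and 410.

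PU.1 regions were more often near lost than near gained NCoR peaks. PU.1 is the ETS factor that marks macrophage enhancers, and of its 50690 regions 4.53% rose and 21.7% fell. A PU.1 region lay near 33.1% of the gained but 80.5% of the lost NCoR peaks, against 70.3% of uncalled and 63.3% of all peaks. At lost peaks 53.7% of the PU.1 regions fell, with a median log2 fold change of −1.06, and at gained peaks 40.9% rose, with a median of 0.80. Under TMM the median over all PU.1 regions moved from −0.41 to 0.00, and 29.7% of the regions at lost peaks fell. At Angptl4 PU.1 fell from 71.9 and 75.3 to 3.27 and 4.46 tags per 10 M, and at Mir155hg it rose from 2.07 and 3.11 to 145 and 115. The AP-1 member Fosl2 (31283 regions, 11.4% higher and 4.19% lower) rose at 53.6% of its regions near gained peaks and fell at 13.8% of those near lost peaks. Under TMM these shares were 73.5% and 32.8%, while the medians moved little, from 2.41 to 2.42 and from −1.36 to −1.37.

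Near called NCoR peaks the median responses of coactivators and of the kinase ERK1 had the sign of the NCoR change. The acetyltransferase p300 rose at 42.1% and fell at 12.9% of 67998 regions. A p300 region lay near 81.1% of the gained, 78.7% of the lost and 81.3% of all NCoR peaks. Near gained NCoR peaks 87.2% of its regions rose, with a median log2 fold change of 2.70, and near lost peaks 43.1% fell, with a median of −0.88. Under TMM the medians were 2.18 and −1.40 and 66.9% of the regions near lost peaks fell, and at peaks where NCoR was not called the p300 median changed sign, from 0.33 to −0.19. PGC1β, a coactivator of nuclear receptors, rose at 16.4% and fell at 6.35% of 45675 regions. A PGC1β region lay near only 43.4% of the gained, 55.8% of the lost and 53.1% of all NCoR peaks. Near gained peaks PGC1β rose at 74.3% of these regions, with a median of 2.04. Near lost peaks it fell at 24.4%, with a median of −0.75. ERK1 rose at 10.3% and fell at 2.53% of 27931 regions. An ERK1 region lay near only 36.3% of the gained, 42.1% of the lost and 44.5% of all NCoR peaks. Near gained peaks ERK1 rose at 40.5% of these regions, with a median of 1.91. Near lost peaks it fell at 10.4%, with a median of −0.76. At the Ptgs2 promoter p300 rose from 41.4 and 30.2 to 205 and 213 tags per 10 M and PGC1β from 21.7 and 11.6 to 65.5 and 72.1.

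Acetylation of histone H3 at lysine 27 (H3K27ac), the mark of active enhancers and promoters that p300 writes and HDAC3 can remove, changed at fewer sites. Its wild type libraries came from NCoR flox/flox cells and carry another library date, so they are not from the same cells as NCoR. Of 17055 regions 7.99% rose and 4.57% fell. In all, 1263 of the 12866 gained and 2364 of the 9207 lost NCoR peaks lay within 500 bp of the centre of such a region. These are 9.82% of the gained and 25.7% of the lost peaks, against 24.4% of all NCoR peaks. At the gained ones 33.1% of the regions rose, with a median log2 fold change of 0.82, and at the lost ones 10.96% fell, with a median of −0.15. Distal gained peaks had 37.4% of their regions higher, and gained peaks within 2 kb of a start site 24.8%. At the Ptgs2 promoter H3K27ac rose from 5.04 and 4.58 to 28.3 and 28.3 tags per 10 M, and at the Trem2 promoter it fell from 30.9 and 38.7 to 13.2 and 8.96.

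Sequences under the peaks differed between gains and losses over the whole set, for which the printed examples, picked by their motifs, are no evidence. Every motif was searched on both strands in the 200 bases around the peak centre, and 7 peaks outside the 21 main chromosomes were left out. The ISRE was found in 13.7% of gained, 2.56% of lost and 5.65% of uncalled peaks, against 7.03% of all. The wide NF-κB sequence was found in 10.6%, 3.51% and 5.02%, against 6.07% of all. Of the peaks that held an ISRE 45.7% gained and 6.10% lost NCoR, and of those with the NF-κB sequence 40.8% and 9.67%. A stricter NF-κB sequence, a subset of the wide one, was in 0.967% of all peaks, and 55.1% of its holders gained NCoR.

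The lost peaks were richer in core sites and PU.1 sequences. The nuclear receptor core site AGGTCA was in 22.99% of lost, 12.5% of gained and 15.8% of all peaks, and GAGGAAGT, the PU.1 sequence, in 15.1%, 5.92% and 10.7%. The REV-ERB/ROR element, which contains the core site, was in 0.663% of lost, 0.210% of gained and 0.347% of all peaks. Pairs of core sites with 1 base between them, a form bound by PPAR and RXR, were rare, in 15 lost peaks, 0 gained peaks and 34 peaks in all. The AP-1 sequence TGANTCA was in 23.9% of gained, 14.5% of lost and 20.9% of all peaks; among peaks more than 2 kb from a start site its share was 24.9% of gained, 15.3% of lost and 25.3% of uncalled peaks. The E-box CACGTG of clock and MYC-related factors was in 2.48% of gained and 4.90% of lost peaks, and the GC box in 1.03% and 2.32%, against 4.84% and 4.26% of uncalled peaks. Median GC content was 42.5% in gained, 49.5% in lost and 47.5% in uncalled peaks, and its part in these shares was not tested.

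**Figure D5:**
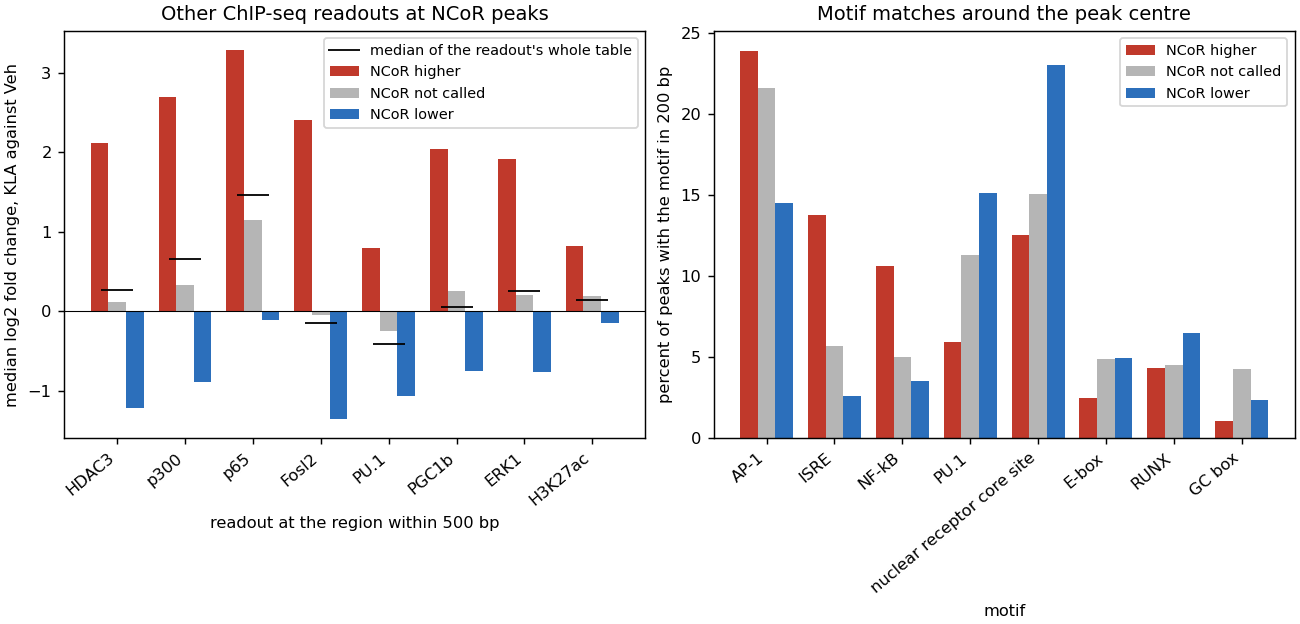
Left, median log2 fold change (KLA against Veh) of 8 other ChIP-seq readouts at regions within 500 bp of NCoR peaks that were higher (red), not called (grey) or lower (blue), with a black dash at the median of each readout's whole table; right, percent of these NCoR peaks with each motif in the 200 bases around the centre. Every red bar on the left is above its dash and every blue bar below it, and on the right red leads for ISRE and NF-κB and blue for PU.1 and core sites.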

How the data were processed

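The authors mapped ChIP-seq reads to mm10 with Bowtie2, made HOMER tag directories and peaks, kept peaks by IDR between replicates, merged them over conditions and deposited raw tag counts per peak, with at most 3 tags per position, and library totals in the headers. DESeq2 is also named in the submitters' notes; versions are not given in the sources used here. Of these counts, peaks with at least 4 tags in 1 library (16 for H3K27ac) were tested with edgeR 4.0.16 in R 4.3.3 (quasi-likelihood, header totals, Benjamini-Hochberg adjusted p under 0.05 and more than 2-fold; SE from the F statistic). In simulated data, 57.5% of 200 peaks changed 3-fold were recovered among 55045, and 84.5% of 200 genes among 12887. Far fewer features were changed there than were called in the data, so these shares are not the recovery of this comparison. All peaks passed the count minimum. Alternatives were TMM, DESeq2 1.42.0, other filters, a replicate block and leaving out each library. Peaks were assigned to the nearest gene as HOMER annotates it, also where that gene is far away. All 21 chromosomes of the peak files fitted the mm10 RefSeq reference in length, from which sequences were read. Replicates are biological by the labels, yet nothing more is said of their cultures, so p-values measure the spread between these libraries. Intervals come from the same fits and include that spread; floors (3 tags over a group) cover counting error only. The members, gene lists and tests were chosen with earlier results of these data known. Named were the 12 peaks of lowest p in each direction (1 per gene), the lowest p per class and distance bin, the strongest peak of list genes (up to 4 called in each direction; members not called only in part), the 10 genes first by p and by number of called peaks, and Ptgs2, Cp, Il12a, Abca1, Scd2 and Npas2. NCoR input libraries were not analysed here.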

Additional observations from a re-analysis of the deposited data

How the results depend on the processing

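The number of NCoR peaks called higher and lower was within 1.5 times the reported 12866 and 9207 under TMM (13150 and 9549), DESeq2 size factors (13605 and 9055), the DESeq2 test (11718 and 8576), no filter (12866 and 9207) and edgeR's filterByExpr (12866 and 9209). Leaving out each library in turn gave 4833 to 16463 higher and 4440 to 11600 lower peaks, with the lowest counts when a KLA library was left out; a group left with 1 library was then assumed to vary like the other group. The median log2 fold change ran from −0.010 to 0.23 over peaks and from −0.12 to 0.11 over genes, so the reported medians of 0.10 and −0.02 say little about a net shift. With no fold minimum 3155 genes were higher and 3214 lower. The share of distal peaks among gains and among losses moved by less than 4 percentage points, but the gap between them was small too. It stood at 87.8% of gains and 83.2% of losses. Without KLA replicate 1 the shares were 88.4% and 85.6%, and without KLA replicate 2 they were 87.8% and 86.7%. The difference between gains and losses was thus smaller without a KLA library, though gains kept the higher share.

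With the replicate number as a block, 11469 peaks were higher and 8508 lower, and 1855 genes had a net gain and 1506 a net loss. No peak then passed the threshold for a difference between NCoR and HDAC3, a test that mostly could not reach differences below about 2-fold. Libraries of the same number did not deviate together (correlation −0.00068 over peaks), so the numbers were not taken as pairs, and among the peaks named here the block ended the call at Per2 alone.

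The number of peaks called different in their NCoR and HDAC3 responses stayed at 0 under TMM and 2 other matching distances. The median difference was 0.048 under TMM and −0.41 to 0.13 with libraries left out. With a motif window of 100 bases, holders of the AP-1 sequence lost NCoR at 10.7%, those of the NF-κB sequence gained it at 44.8% and lost it at 8.17%, those of the ISRE at 49.5% and 5.38%, and those of the nuclear receptor core site at 16.9% and 26.7%, all further from the shares of all peaks than with 200 bases. Of 840 comparisons at 84 named peaks, 822 stayed on their side of the threshold with the same direction. Many of these peaks were named for a low p-value or a large fold, so the count does not describe all peaks. The fit with no filter could not differ, since all peaks passed the count minimum. The sign turned at the strongest Il12a peak without Veh replicate 1 or KLA replicate 2 (log2 fold changes from −0.039 to 0.22 over the left-out libraries), at the strongest Runx1 peak without KLA replicate 2 (−0.15 to 0.020) and for the Runx1 sum without Veh replicate 2 (−0.22 to 0.017), none of them called. The summed NCoR of Jun was −1.03 on the log2 scale, but −0.99 under TMM. Except where the construction shows it, as with fewer libraries, the cause was not tested. Depth limits what can be said of weak peaks: 3 tags over a group were the floor. The simulated recovery of 57.5% at 3-fold does not measure this limit. Only 200 of 55045 peaks were changed there, none of them among the weakest, whereas 40.1% of peaks were called in the data.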
